A study of Mus musculus with 7 samples.

Results

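The Hox genes of the 4 mouse clusters were examined on 7 single-colour Affymetrix arrays from the TM4 cell line, primary Sertoli cells and whole testis. Their 38 members were taken by symbol, and every probe set annotated to exactly 1 of them was kept. Of the 38, 35 had such a probe set, out of 18336 genes with one in the series. The table of the Sertoli and TM4 arrays held 48 probe sets for 33 members, out of 18193 genes. The table of the testis arrays held 38 probe sets for 31 members, out of 8251 genes, and 29 members were in both. Hoxc11, Hoxc12 and Hoxd4 had no probe set of their own in either table, and 3 probe sets in each table that name 2 Hox genes were left out.

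Each of the 7 groups was 1 array. TM4 is an established line derived from mouse Sertoli cells, and it was measured without and with transfection of ERM, a transcription factor of the ETS family encoded by Etv5. Primary Sertoli cells came from 4-week-old wild-type mice, from 4-week-old ERM knockout mice and from 10-week-old ERM knockout mice. Whole testis came from wild-type and ERM knockout mice aged 4 weeks. The labels do not give the strain, the deleted part of the gene, the number of animals behind an array, the vector or the kind of transfection. TM4 is a single line, so its arrays describe that line and not Sertoli cell lines at large.

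Hox genes encode homeodomain transcription factors that give cells along the head-to-tail axis their regional identity. Within a cluster the genes lie in the order in which they are used along the body, with low paralogue numbers active from the hindbrain backwards and high numbers in the trunk, limbs and urogenital tract. Genes of the same number in different clusters are paralogues with overlapping roles, and adult cells of mesodermal origin often keep part of the Hox code of the place they came from. Paralogue groups 1 to 4 are called anterior here, 5 to 8 central and 9 to 13 posterior.

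The promoters of 4 members are shown because Hoxa9, Hoxa10 and Hoxa11, which lie next to each other on chromosome 6, had the highest TM4 to Sertoli ratios of the Hoxa cluster, while Hoxb4 on chromosome 11 went the other way. Each runs 5' to 3' from 250 bases before to 50 bases after an annotated start in RefSeq, build GRCm38.p6, and Hoxa10 has a pair of starts. Capitals mark GGAA on either strand (TTCC where it lies on the other strand), the core of the site that ETS factors such as ERM recognise.
Hoxa9, chr6:52227321-52227620, minus strand: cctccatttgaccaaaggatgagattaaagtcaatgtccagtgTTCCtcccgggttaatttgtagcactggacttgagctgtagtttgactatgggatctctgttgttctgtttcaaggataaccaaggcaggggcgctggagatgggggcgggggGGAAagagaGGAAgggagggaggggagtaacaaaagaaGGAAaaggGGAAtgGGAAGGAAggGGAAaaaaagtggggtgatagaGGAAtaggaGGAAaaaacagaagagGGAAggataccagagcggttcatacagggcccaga
Hoxa10, chr6:52240805-52241104, minus strand: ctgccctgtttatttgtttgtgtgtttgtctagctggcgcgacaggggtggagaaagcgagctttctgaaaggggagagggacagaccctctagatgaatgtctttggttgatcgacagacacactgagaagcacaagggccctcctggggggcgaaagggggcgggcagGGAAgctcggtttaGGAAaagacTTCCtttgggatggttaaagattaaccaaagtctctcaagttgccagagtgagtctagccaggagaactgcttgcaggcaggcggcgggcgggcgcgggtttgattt
Hoxa10, chr6:52234890-52235189, minus strand: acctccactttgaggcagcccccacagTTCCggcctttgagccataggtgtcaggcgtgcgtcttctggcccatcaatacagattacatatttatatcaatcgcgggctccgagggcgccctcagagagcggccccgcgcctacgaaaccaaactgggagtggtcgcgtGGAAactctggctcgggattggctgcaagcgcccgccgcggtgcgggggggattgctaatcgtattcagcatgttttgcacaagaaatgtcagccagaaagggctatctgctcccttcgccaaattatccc
Hoxa11, chr6:52245761-52246060, minus strand: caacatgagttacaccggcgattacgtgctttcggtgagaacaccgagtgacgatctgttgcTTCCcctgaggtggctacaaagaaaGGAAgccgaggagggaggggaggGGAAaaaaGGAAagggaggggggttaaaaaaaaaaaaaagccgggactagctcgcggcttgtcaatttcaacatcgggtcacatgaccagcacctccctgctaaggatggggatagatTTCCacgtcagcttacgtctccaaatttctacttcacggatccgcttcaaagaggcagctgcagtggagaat
Hoxb4, chr11:96318017-96318316, plus strand: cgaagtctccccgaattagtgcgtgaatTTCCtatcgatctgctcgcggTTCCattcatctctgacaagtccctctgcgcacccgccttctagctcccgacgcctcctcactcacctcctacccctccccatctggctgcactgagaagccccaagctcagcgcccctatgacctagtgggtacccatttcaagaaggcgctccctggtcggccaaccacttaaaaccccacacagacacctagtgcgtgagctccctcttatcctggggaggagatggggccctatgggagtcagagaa
The printed Hoxa9 promoter held 11 such cores, Hoxa11 held 5, the Hoxa10 promoters held 3 and 2, and Hoxb4 held 2. A core of this length is common: 96% of 32851 promoters of the same length held at least 1, and so did 22 of 24 Hox promoters (91.7%), which belong to 22 of the 38 members. The longer form CCGGAA, which contains the core, was found on either strand in 14.9% of all promoters and in 2 of the 24 Hox promoters, those of Hoxa10 and Hoxd12. TATAAA, searched on both strands, was in 13.6% of all and 4 of 24 Hox promoters, among them that of Hoxa10. TGATNNAT, a form bound by HOX proteins together with PBX partners and searched on both strands, was in 8.85% of all and 4 of 24 Hox promoters. The Hox promoters held a median of 14.5 CpG dinucleotides against 7 over all promoters. These matches describe letters in the windows and no binding was measured.

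Intensities were scaled so that the trimmed mean of each array was 500, and readings below a floor of 100 were set to the floor before a ratio was taken, so that a ratio with 1 reading below it is a bound and is written "at least". The share of genes at or above the floor was 83.4% to 86.3% on the Sertoli and TM4 arrays and 89.1% to 89.2% on the testis arrays. Each group being 1 array, there were no replicates to check a difference against and no p-value was computed, so the precision is limited by how few arrays there are. Etv5 did not read lower on the Sertoli arrays labelled knockout on any of its 3 probe sets, the brightest of which, 1428142_at, gave 710 for wild-type Sertoli cells and 910 (4 weeks) and 995 (10 weeks) for those labelled knockout. The testis arrays were not checked in this way. Without knowing which part was deleted, these values do not settle the labels, and directions below are between arrays as labelled. The Sertoli label of the primary cells was borne out by the summed signal of 16 Sertoli markers with a probe set, which was 63426 to 75164. The number of these markers at or above the floor told little, at 15 or 16 in the primary cells and 14 on each TM4 array. In TM4 the sum was 4042 and 4056, 13 of the 16 markers were at least 2-fold lower than in wild-type Sertoli cells, and the defining factors Sox9 and Wt1 read 95.1 and 97.4 without ERM. Of the 16, Amh and Espn were 2-fold or more higher in TM4, and so was the inhibin subunit gene Inhbb, outside that list, at 3833 and 3766 against 318, 350 and 619. Markers of other cells also separated the samples. The summed signal of 12 germ cell markers was 4339 to 4448 in TM4 and 24528, 24449 and 6343 in the Sertoli preparations. In TM4, Ddx4, Sycp1, Tnp1 and Tnp2 were below the floor and the other 8 reached it. Of the 12, 10 were at least 2-fold lower in TM4 without ERM than in wild-type Sertoli cells, and Zbtb16 was higher. For 10 macrophage markers the sums were 3595 to 3760 in TM4 and 5207 to 12309 in Sertoli cells. Of the 10, 8 were at least 2-fold lower in TM4 without ERM than in wild-type Sertoli cells, and Fcer1g and Ptprc were higher. For 8 fibroblast markers they were 22645 to 25284 and 6304 to 11344, with the collagen genes Col1a1, Col1a2 and Col3a1 higher in TM4 and Dcn and Pdgfra lower. Of 8 epididymal duct markers, which summed to 1167 to 1363 in TM4 and 6541 to 9961 in Sertoli cells, Defb19 and Pax8 were lower and Lcn8 higher in TM4, and Adam7 and Spint4 were below the floor on all 3 Sertoli arrays. Markers of peritubular myoid cells summed to 14537 to 16457 and 9275 to 15838, and those of Leydig cells to 1380 to 1446 and 2529 to 6214. Kidney tubule markers summed to 1379 to 1963 and endothelial markers to 802 to 1180 over the 5 arrays. The part of these cells in the Hox differences was not tested. In such bulk RNA, fewer cells of a type and less RNA per cell cannot be told apart.

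TM4 cells and primary Sertoli cells carried different Hox profiles. Posterior genes of the Hoxa cluster (Hoxa9, Hoxa10 and Hoxa11), Hoxb6 and Hoxb7 and Hoxb2 were 5.25 to 10.3 times as bright in TM4 without ERM as in wild-type Sertoli cells, counting bounds, while Hoxb4 and Hoxb5 were at least 4.04-fold and at least 5.4-fold lower in TM4. Of the 33 members on this array design, 29 reached the floor on at least 1 of the arrays compared and so had a ratio, 10 were higher in TM4 by 2-fold or more, 4 lower and 15 within 2-fold. The other 4 members (Hoxb1, Hoxc13, Hoxd1 and Hoxd12) lay below the floor on both. Over all genes, 16.1% of 16916 were higher by the same measure and 17.8% lower. The Hox shares were 34.5% and 13.8%, so the excess over the background lay on the TM4 side, with a median log2 ratio of 0.40 for the Hox genes and 0.08 for all genes. Among genes whose brighter array read between 100 and 1583, the range of the Hox genes, 15.2% were higher and 15.8% lower.

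Counting probe sets in place of genes, 14 of 41 Hox probe sets were higher in TM4 by 2-fold or more (34.1%) and 4 lower (9.76%), against 15.2% and 16.8% of all probe sets. The TM4 and Sertoli arrays have different deposited scales. Without scaling, the median over all genes moved from 0.08 to -0.60 on the log2 scale, and the split was 6 Hox genes higher and 6 lower, against 7.24% and 34.3% of all genes. Hoxc9, Hoxc10, Hoxd9 and Hoxd10 were then within 2-fold. Probe sets of the same gene also disagreed more here than in the other comparisons, with a standard deviation of log2 ratios between probe sets of 0.63 where the brighter array read 100 to 500 and 0.81 where it read 500 or more.

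**Figure D1:**
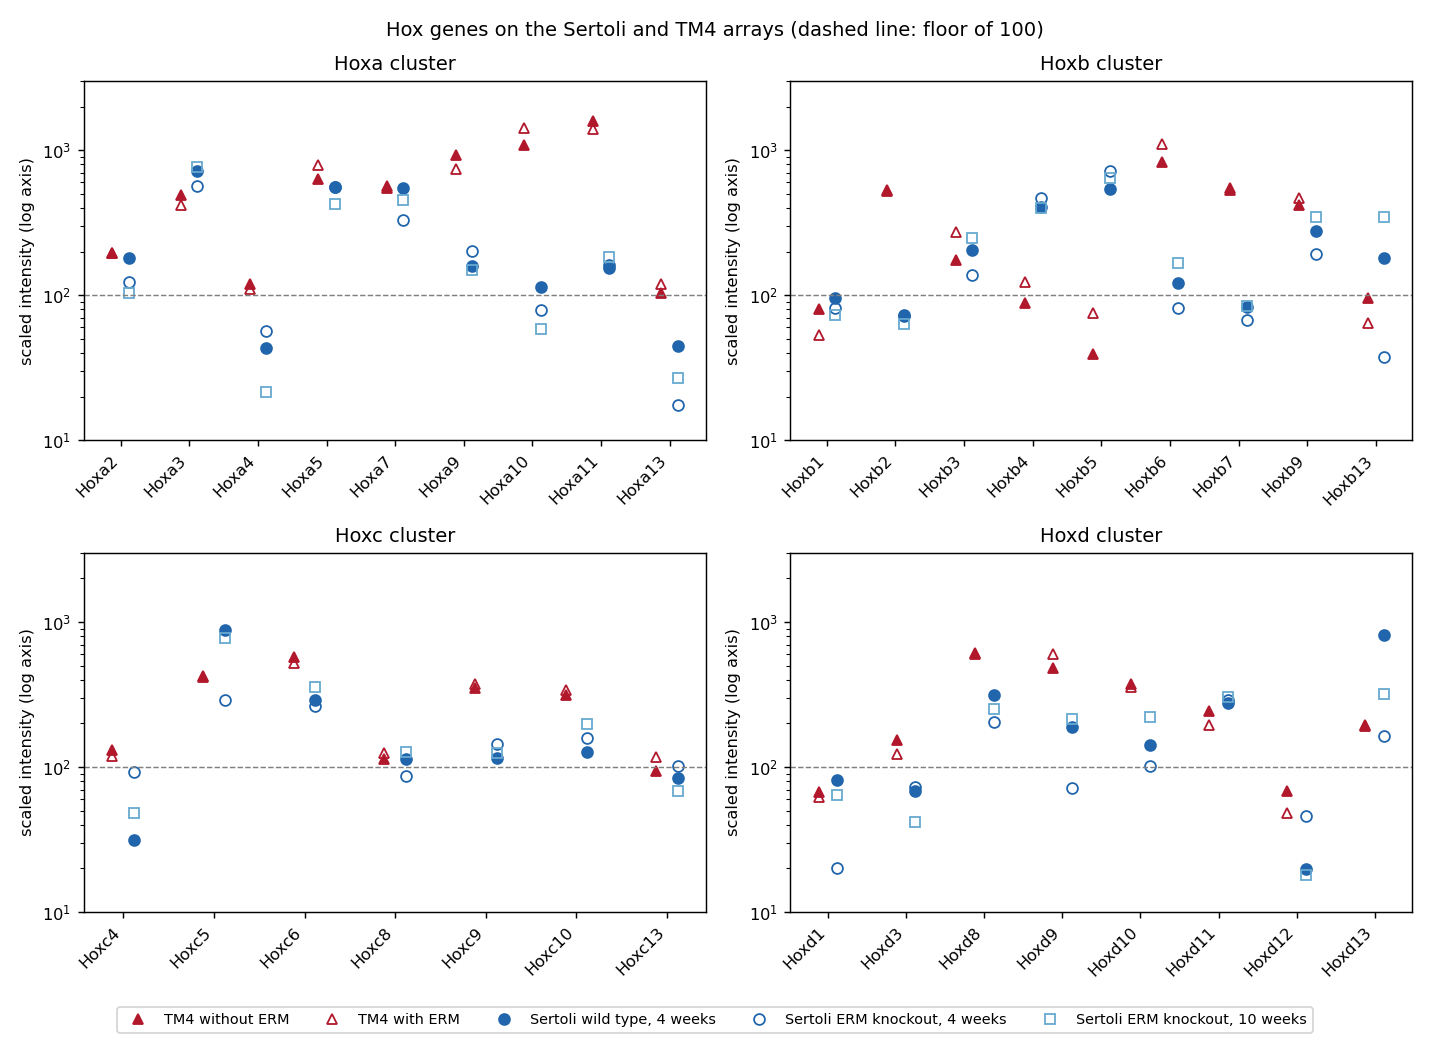
Scaled intensity on a log axis for the representative probe set of each of 33 Hox genes, 1 panel per cluster with genes in order of paralogue number, with triangles for the 2 TM4 arrays and circles and squares for the 3 Sertoli arrays. Hoxa9, Hoxa10, Hoxa11, Hoxb2, Hoxb6 and Hoxb7 stand clearly higher in TM4, and Hoxb4 and Hoxb5 in Sertoli cells. Points of different genes are not comparable in height, because each probe set has its own response.

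In the values that follow, TM4 readings are given without and then with ERM, and Sertoli readings for wild type at 4 weeks, knockout at 4 weeks and knockout at 10 weeks. Hoxa11, which patterns the limb, kidney and reproductive tract, read 1583 and 1391 in TM4 and 154, 162 and 185 in Sertoli cells (1420414_at). Hoxa10, which specifies the uterus and the lower male tract, read 1083 and 1423 in TM4 and 114, 79.3 and 58.2 in Sertoli cells (1431475_a_at). Both genes stood far apart between the cell sources, 10.3-fold and 9.47-fold between TM4 without ERM and wild-type Sertoli cells. Hoxa9, known for its part in blood progenitors and in axial patterning, read 932 and 741 against 160, 202 and 150 (1455626_at, 5.84-fold), and 338 and 331 against 123, 148 and 184 on its other probe set (2.75-fold). The second Hoxa10 probe set, 1446408_at, was dim, at 131 and 247 against 47.6, 62.8 and 50.5, which gave a ratio of at least 1.31. On each of these 5 probe sets every TM4 reading lay above every Sertoli reading. Such separation without a margin was not counted over all genes, here or for the genes below, so how common it is was not tested. The promoters of Hoxa9, Hoxa10 and Hoxa11 are those printed above.

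A difference of that size was not seen at the neighbouring genes. Hoxa13, the last gene of the cluster and a gene of the digits and the external genitalia, read 103 and 120 in TM4 and 44.7, 17.4 and 27 in Sertoli cells, so that only a ratio of at least 1.03 could be given. On the anterior side Hoxa7 read 548 and 571 in TM4 and 546, 328 and 455 in Sertoli cells, with a log2 ratio of 0.01 between TM4 without ERM and the wild-type array. Hoxa5, needed for lung and mammary development, read 630 and 786 against 554, 554 and 426 (1443803_x_at), and at least 1.57-fold higher in TM4 on 1448926_at. Hoxa2, a hindbrain and branchial arch gene, and Hoxa4 had log2 ratios of 0.11 and at least 0.27. Hoxa3, which patterns the thymus and parathyroid, could not be assigned a direction. Its brightest probe set, 1452421_at, read 492 and 420 in TM4 and 720, 567 and 762 in Sertoli cells, whereas 1431392_at read 479 and 450 against 65.7, 83.6 and 111.

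The Hoxb cluster was divided. Hoxb5, a gene of the gut nervous system and lung, read 39.4 and 75.5 in TM4, below the floor, and 540, 717 and 647 in Sertoli cells (1418415_at). Hoxb4, best known in blood stem cells, read 88.3 and 123 in TM4 and 404, 469 and 401 in Sertoli cells (1451761_at). On its other probe set, 1460379_at, Hoxb4 read 131 and 131 against 191, 320 and 169, which was in the same direction but within 2-fold (1.45-fold). On all 3 probe sets of these neighbouring genes every Sertoli reading lay above both TM4 readings. Immediately beside them Hoxb6 read 833 and 1102 in TM4 and 121, 81.5 and 167 in Sertoli cells (6.9-fold), and Hoxb7 read 529 and 551 against 83.6, 67.9 and 84 (at least 5.29-fold). Hoxb2, a hindbrain gene at the anterior end, also belonged to TM4, at 525 and 533 against 73.5, 72.5 and 63.3 (at least 5.25-fold). Hoxb3 had 175 and 273 against 206, 139 and 250 on 1427605_at but 289 and 318 against 25.3, 1.74 and 22.2 on 1456229_at, so its probe sets disagreed. Hoxb9 was within 2-fold (1.51-fold higher in TM4), and Hoxb13, a gene of the prostate and the tail end of the axis, read 96.5 and 64.5 against 180, 37.8 and 345.

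In the Hoxc cluster, Hoxc9 read 349 and 374 in TM4 and 116, 145 and 125 in Sertoli cells (3.02-fold between TM4 without ERM and wild type). Hoxc10, a gene of the lumbar spinal cord and hindlimb level, read 315 and 342 against 128, 159 and 197 (2.46-fold). The groups did not overlap for either gene. Hoxc6, which patterns the thoracic level, had 3 probe sets that differed in size but not in direction, with log2 ratios of 0.05, 0.97 and at least 2.89. The largest came from 1427454_at, at 743 and 640 in TM4 and 89.5, 94.5 and 71.1 in Sertoli cells. Hoxc5 had 1 probe set lower in TM4, 1450832_at at 428 and 418 against 882, 292 and 773, and 1 higher, 1456301_at at 422 and 369 against 266, 452 and 323. Its readings overlapped between the cell sources on both, so its place among the 4 lower genes rests on 1 probe set and on the wild-type array. Hoxc4, Hoxc8 and Hoxc13 read 31.3 to 132 on all 5 arrays.

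In the Hoxd cluster the middle genes were brighter in TM4 and the last gene dimmer. Hoxd9 read 481 and 607 in TM4 and 190, 71.6 and 213 in Sertoli cells (2.53-fold). Hoxd10 read 373 and 356 against 142, 101 and 223 (2.62-fold). Both are genes of the lumbar level and hindlimb, and neither overlapped between the cell sources. Hoxd8 lay just under the threshold on both of its probe sets, with 610 and 598 against 312, 204 and 252 on 1431099_at (1.96-fold) and a ratio of 1.89 on 1433638_s_at. Hoxd13, a gene of the digits and the genital tubercle, read 192 and 195 in TM4 and 810, 165 and 320 in Sertoli cells (1422239_at, 4.22-fold lower), and 120 and 119 against 224, 143 and 198 on 1440626_at (1.88-fold lower). On its brighter probe set the readings overlapped, because the knockout array at 4 weeks lay below both TM4 arrays. Hoxd11 was slightly brighter in Sertoli cells (244 and 194 against 275, 292 and 306), Hoxd3 read 153 and 123 against 68, 72.7 and 41.9, and Hoxd1 and Hoxd12 were below the floor on each of the 5 arrays.

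**Figure D2:**
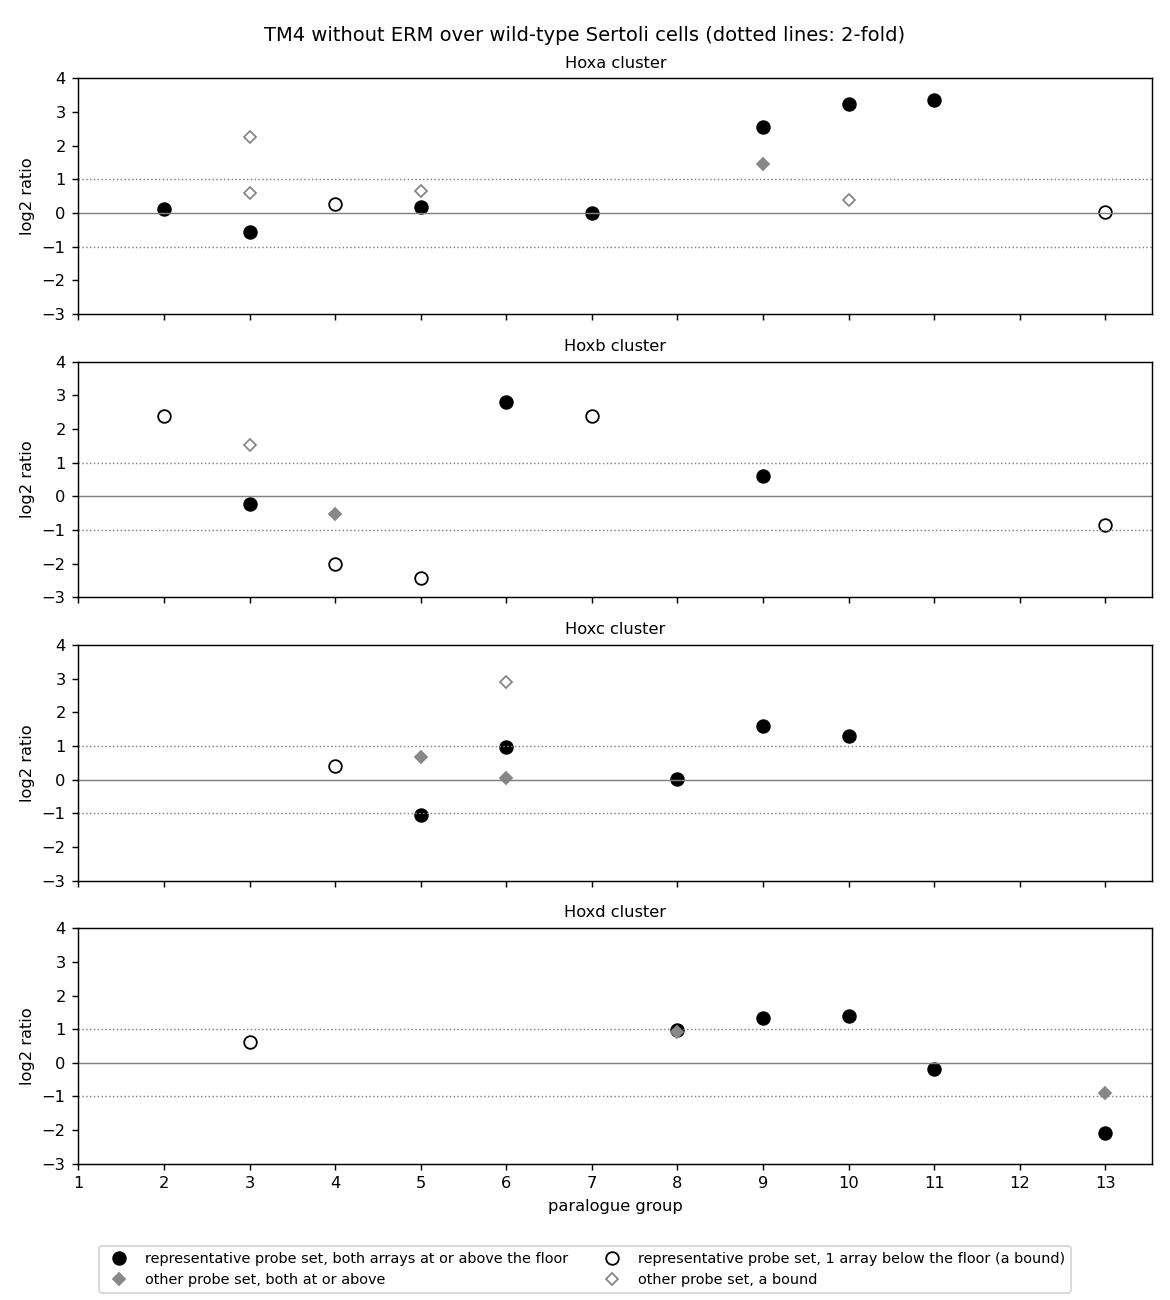
Log2 ratio of TM4 without ERM over wild-type Sertoli cells (vertical axis) against paralogue group (horizontal axis) for Hox probe sets at or above the floor on at least 1 array, 1 panel per cluster, with circles for the representative probe set of a gene, diamonds for its other probe sets and open symbols for bounds. The representative probe sets of groups 9 and 10 lie above the upper 2-fold line in the Hoxa, Hoxc and Hoxd clusters, and the Hoxb cluster changes sign between groups 5 and 6.

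By position along the clusters, 7 of 12 posterior genes with a ratio were higher in TM4 by 2-fold or more and 1 was lower, with a median log2 ratio of 1.32. Of 9 central genes 2 were higher and 2 lower (median 0.19), and of 8 anterior genes 1 was higher and 1 lower (median 0.19). Over all genes the median was 0.08, with 16.1% higher and 17.8% lower, so the central and anterior counts were near the background. Paralogue groups 9 and 10 were at least 2-fold higher in TM4 in each of the Hoxa, Hoxc and Hoxd clusters. Hoxb9 was within 2-fold. On the deposited scale only those of the Hoxa cluster were at least 2-fold higher. Under a floor of 0.4 times the trimmed mean, Hoxc9, Hoxc10 and Hoxd10 were within 2-fold and Hoxd9 had a log2 ratio of 1.27. Part of the contrast between positions depended on which probe set stood for a gene. When each probe set was counted, 8 of 15 posterior, 3 of 14 central and 3 of 12 anterior ones were at least 2-fold higher, since Hoxa3, Hoxb3 and Hoxc6 joined the higher genes. The median over probe sets was 1.30, 0.66 and 0.34, against 0.07 for all probe sets, of which 15.2% were at least 2-fold higher. The difference between positions was not tested, and genes of a cluster are neighbours that are not independent.

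Across all 5 arrays, 8 of 30 Hox genes had their dimmer TM4 reading at least 2-fold above the brightest Sertoli reading (26.7%), against 11.4% of 17257 genes. These were Hoxa9, Hoxa10, Hoxa11, Hoxb2, Hoxb6, Hoxb7, Hoxc9 and Hoxd9. The gap was widest for Hoxa10 (9.47-fold) and Hoxa11 (7.51-fold), and narrowest for Hoxd9 (2.25-fold) and Hoxc9 (2.41-fold). In the other direction 2 of 30 (6.67%), Hoxb4 and Hoxb5, had every Sertoli reading at least 2-fold above both TM4 readings, against 11.2% of all genes. The gap was 3.27-fold for Hoxb4 and at least 5.4-fold for Hoxb5. Among genes of the Hox brightness range the shares were 10.4% and 7.66%, so the count in the second direction was near its background. Leaving out any 1 of the 5 arrays gave 8 or 9 genes in the first direction and the same 2 in the second. This was no check of the named genes, because leaving out an array can only keep or widen such a gap. With the deposited values, 6 genes were in the first direction and 2 in the second, against 5.64% and 21.7% of all genes. The 3 Sertoli arrays differ in genotype and age and the TM4 arrays in transfection, so these gaps are ranges over arrays and not over replicates.

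Gene lists around the Hox genes were counted in the same way, with no test, and their counts are to be read beside the 16.1% of all genes higher and 17.8% lower in TM4 without ERM and the all-gene median of 0.08. PBX, MEIS and PREP proteins are homeodomain cofactors of the TALE class that bind DNA together with HOX proteins. Of 8 cofactor genes with a ratio, 4 were 2-fold or more higher in TM4 without ERM than in wild-type Sertoli cells and 1 was lower, with a median log2 ratio of 1.20. Meis3 read 1419 and 1288 in TM4 and 33.7, 63.4 and 33.4 in Sertoli cells, at least 14.2-fold higher. Meis2 read 824 and 920 against 58.9, 40.9 and 61.6 (at least 8.24-fold), and Pknox2, a PREP gene, 796 and 703 against 71.3, 73.8 and 95.1 (at least 7.96-fold). Pbx3 was 3.74-fold higher at 546 and 541 against 146, 125 and 133. Pbx4, a PBX gene of the germ line, went the other way with 46.7 and 86.3 against 348, 298 and 266. These 5 genes did not overlap between the cell sources, a separation that was not counted over all genes. Pbx2, Pknox1 and Meis1 were within 2-fold, with Meis1 1.71-fold lower in TM4.

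Genes that act on Hox expression were divided. Of 10 inducers and upstream regulators at or above the floor, the signalling factor Fgf8 (1382 and 1423 against 136, 194 and 125, 10.2-fold), the retinoic acid degrading enzyme Cyp26b1 (2.36-fold) and the retinoic acid receptor Rarg (2.2-fold) were higher in TM4 without ERM. Egr2 (7.06-fold) and Aldh1a2, which makes retinoic acid (4.01-fold), were lower. Aldh1a2 read 399 and 398 in TM4 and 1598, 1196 and 563 in Sertoli cells. Cdx2, an activator of posterior Hox genes, was within 2-fold, and Cdx1 lay below the floor on both arrays. Polycomb genes, whose products keep Hox clusters silent, had 3 of 16 higher and 5 lower. Ezh1 was at least 12.2-fold lower and Pcgf2 6.26-fold lower, while Cbx6 was 5.19-fold higher in TM4. Ezh2 and Cbx2 were the other higher members and Jarid2, Ring1 and Rnf2 the other lower ones. Of 10 trithorax and demethylase genes, which act against Polycomb silencing, Kdm6a (3.38-fold) and Kmt2c were lower and none was higher. With 16.1% and 17.8% of all genes past 2-fold in this comparison, the counts for regulators cannot be set apart from the background.

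Of 16 genes that flank the clusters, 1 was at least 2-fold higher in TM4, Hnrnpa1 at 2.35-fold, and 4 were lower, among them Snx10 (3.09-fold), Tax1bp1 (2.54-fold) and Skap2 (2.44-fold), all from the region of the Hoxa cluster. Cbx5 was the remaining one. Of 15 genes that pattern the urogenital ridge, 3 were higher and 5 lower. Emx2 read 973 and 1291 in TM4 and 42, 58.9 and 54.9 in Sertoli cells, and Nr2f2 read 1026 and 1139 against 220, 82.1 and 169. Six4 was at least 4.14-fold higher. On the lower side stood Wt1 (at least 38-fold), Sall1 (8.44-fold), Pax8 (at least 3.88-fold), Nr5a1 (at least 2.96-fold) and Gata4 (2.22-fold). Of 14 other regional homeobox and T-box genes none was higher in TM4, and Otx1 (at least 3.79-fold) and the forelimb gene Tbx5 (at least 2.11-fold) were lower. None of these lists was tested against other genes.

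Between the TM4 arrays without and with ERM, the Hox genes were within 2-fold. Etv5 itself, the gene for ERM, differed little on this pair, at 405 and 473 on 1428142_at, 187 and 211 on 1420998_at and 314 and 475 on 1450082_s_at, which is 1.17-fold, 1.13-fold and 1.51-fold higher on the array labelled as transfected. How much ERM the transfection added is therefore not shown by these values. None of 28 Hox genes at or above the floor differed at least 2-fold between the TM4 arrays, where 0.303% of 16158 genes were higher with ERM by 2-fold or more and 0.421% lower. The log2 ratios ran from -0.33 to 0.65, with 16 above 0 and 12 below and a median of 0.04 against 0.00 for all genes. The largest belonged to Hoxb3, at 175 without and 273 with ERM on its brightest probe set, against a log2 ratio of 0.14 on the other. The genes with the largest TM4 excess moved in different directions, with Hoxa10 at 0.39 and Hoxb6 at 0.40 but Hoxa11 at -0.19 and Hoxa9 at -0.33. The standard deviation between probe sets of a gene was 0.29 on this pair for dim and 0.19 for bright probe sets. A count of 0 is close to these background shares and is no result about the Hox genes in particular. None of the fixed lists of cofactors, upstream regulators or Polycomb genes had a member past 2-fold on this pair either, and of the trithorax list only Kdm6b was lower.

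**Figure D3:**
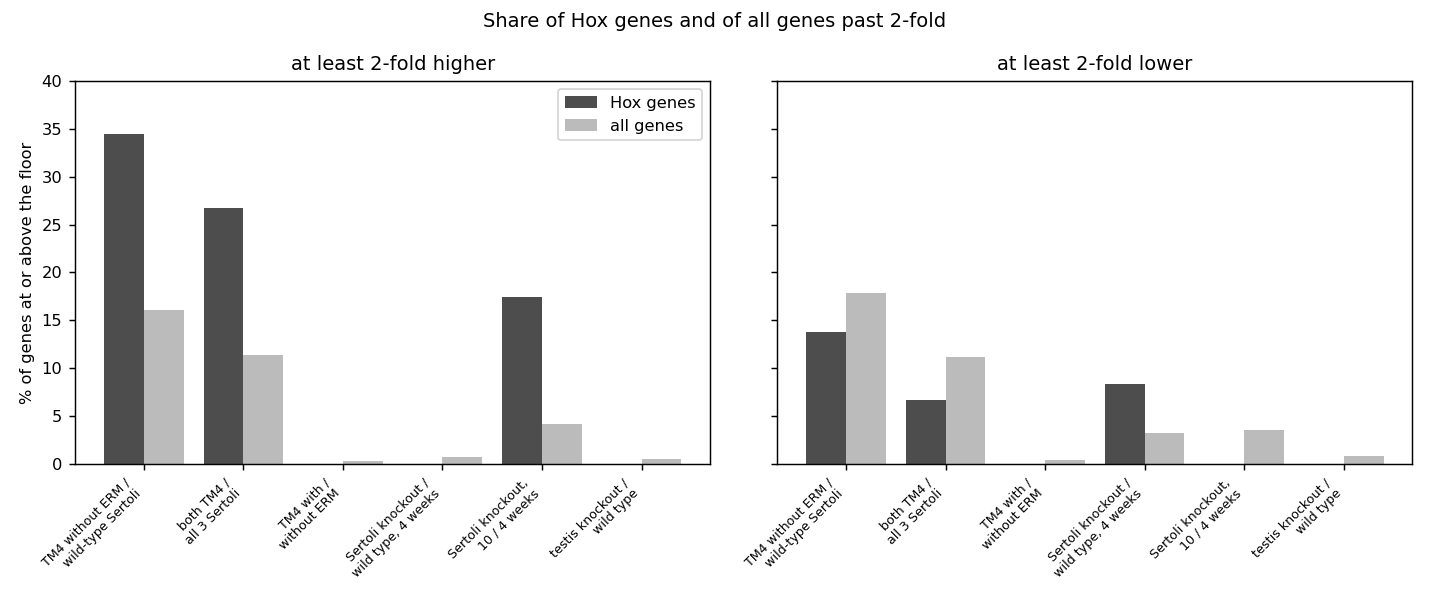
Bars give the percentage of Hox genes (dark) and of all genes (light) with a ratio that were 2-fold or more higher (left panel) or lower (right panel) in each of 6 comparisons of single arrays or sets of arrays. Hox genes exceed the background on the higher side for TM4 over wild-type Sertoli cells (34.5% against 16.1%) and for both TM4 over all 3 Sertoli arrays (26.7% against 11.4%). They also do so for the knockout at 10 over 4 weeks (17.4% against 4.19%). On the lower side they exceed it for Sertoli knockout over wild type at 4 weeks (8.33% against 3.18%). The Sertoli pairs share the 4-week knockout array. The Hox bars are empty for the TM4 and testis pairs.

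In Sertoli cells at 4 weeks, Hoxd13 and Hoxc5 were the 2 Hox genes at least 2-fold lower on the array labelled ERM knockout, of 24 with a ratio (8.33%), and none was at least 2-fold higher. Over all genes 3.18% of 15860 were lower and 0.681% higher. Hoxd13 went from 810 to 165 on 1422239_at (4.92-fold) and from 224 to 143 on 1440626_at (1.57-fold). Hoxc5 went from 882 to 292 on 1450832_at (3.02-fold) but from 266 to 452 on 1456301_at. The first gene therefore had both probe sets in the same direction and the second did not. Of the 24 genes 16 had a log2 ratio below 0 and 8 above, with a median of -0.23 against -0.02 for all genes. Hoxd9 went from 190 to below the floor, at least 1.9-fold lower, and Hoxb13 from 180 to 37.8, at least 1.8-fold lower. Hoxa7 stood at 546 and 328 and Hoxd8 at 312 and 204. Against that direction Hoxb5 stood at 540 and 717 and Hoxb4 at 404 and 469. The 5' probe set of 18S ribosomal RNA read 4551 on the 4-week knockout array, 349 in wild type and 352 in the 10-week knockout, and the summed macrophage signal was 5207, 12309 and 8834 in the same order. Fibroblast markers summed to 6304, 11344 and 10589. The part of these signals in the Hox values was not tested.

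Between the knockout preparations, 4 of 23 Hox genes with a ratio were 2-fold or more higher at 10 than at 4 weeks (17.4%) and none was lower, against 4.19% and 3.51% of 15849 genes. They were Hoxb13 (37.8 to 345, at least 3.45-fold), Hoxc5 (292 to 773, 2.65-fold), Hoxd10 (101 to 223, 2.2-fold) and Hoxd9 (71.6 to 213, at least 2.13-fold). The other probe set of Hoxc5 went from 452 to 323, and under a floor of 0.4 times the trimmed mean only Hoxc5 was counted. Hoxd13 went from 165 to 320 and Hoxb9 from 194 to 348, both just within 2-fold. The 4-week knockout array is shared with the comparison to wild type, and the wild-type array read 190 for Hoxd9, 882 for Hoxc5, 142 for Hoxd10 and 180 for Hoxb13. Against wild type at 4 weeks, the 10-week log2 ratios were 0.17 for Hoxd9, -0.19 for Hoxc5, 0.64 for Hoxd10, 0.94 for Hoxb13 and -1.34 for Hoxd13. Of the cofactors Meis1 was 2-fold or more higher at 10 weeks, at 271 and 670. The summed germ cell marker signal was 24449 at 4 weeks and 6343 at 10 weeks, with 9 of 12 markers at least 2-fold lower at 10 weeks, and its part in the Hox values was not tested.

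**Figure D4:**
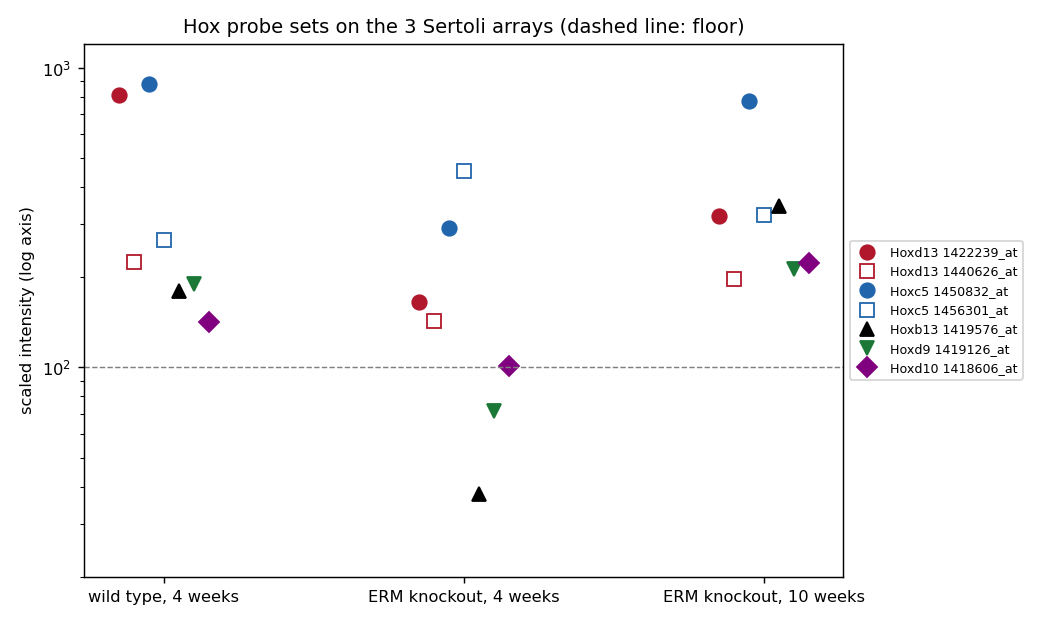
Scaled intensity on a log axis of 7 probe sets of 5 Hox genes on the 3 Sertoli arrays, which are placed along the horizontal axis by genotype and age, with small sideways shifts for legibility. Hoxd13, Hoxd9, Hoxd10 and Hoxb13 have their lowest point on the 4-week knockout array, and the 2 Hoxc5 probe sets cross, with 882, 292 and 773 on one and 266, 452 and 323 on the other.

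In whole testis at 4 weeks no Hox gene differed at least 2-fold between ERM knockout and wild type, of 28 at or above the floor. Over all genes 0.532% of 7515 were higher in knockout by 2-fold or more and 0.852% lower. The log2 ratios of the Hox genes ran from -0.67 to 0.60, with a median of -0.02 against -0.01 for all genes. The extremes were Hoxa11, which read 251 in wild type and 157 in knockout, and Hoxc5, at 168 and 254. Hoxb1 read 257 and 171 and Hoxd11 490 and 329. Hoxd8 (2002 and 1918 on 160460_at, 579 and 655 on 93221_at), Hoxa13 (1086 and 1010), Hoxb6 (801 and 938), Hoxb5 (648 and 638) and Hoxb9 (595 and 568) read above the trimmed mean of 500 on both arrays. Hoxa4 did so on 1 probe set only: 97747_r_at gave 2384 and 2497, while its other 3 gave 477 and 353, 216 and 156, and 24.9 and 3.51. Hoxa6 and Hoxb8 had probe sets on this design alone. Hoxa6 read 466 and 559 on one and 285 and 315 on the other, and Hoxb8 read 381 and 307 on one and 85.7 and 78.4, below the floor, on the other. Hoxa9, Hoxc8 and Hoxc9 lay below the floor on both arrays, as did Hoxa2 and Hoxb3 in wild type. Hoxc5, lower on its brightest probe set on the 4-week knockout Sertoli array, was thus not lower in knockout testis. Hoxd13, lower on both of its probe sets on that Sertoli array, read 367 in wild-type and 306 in knockout testis (1.2-fold lower).

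**Figure D5:**
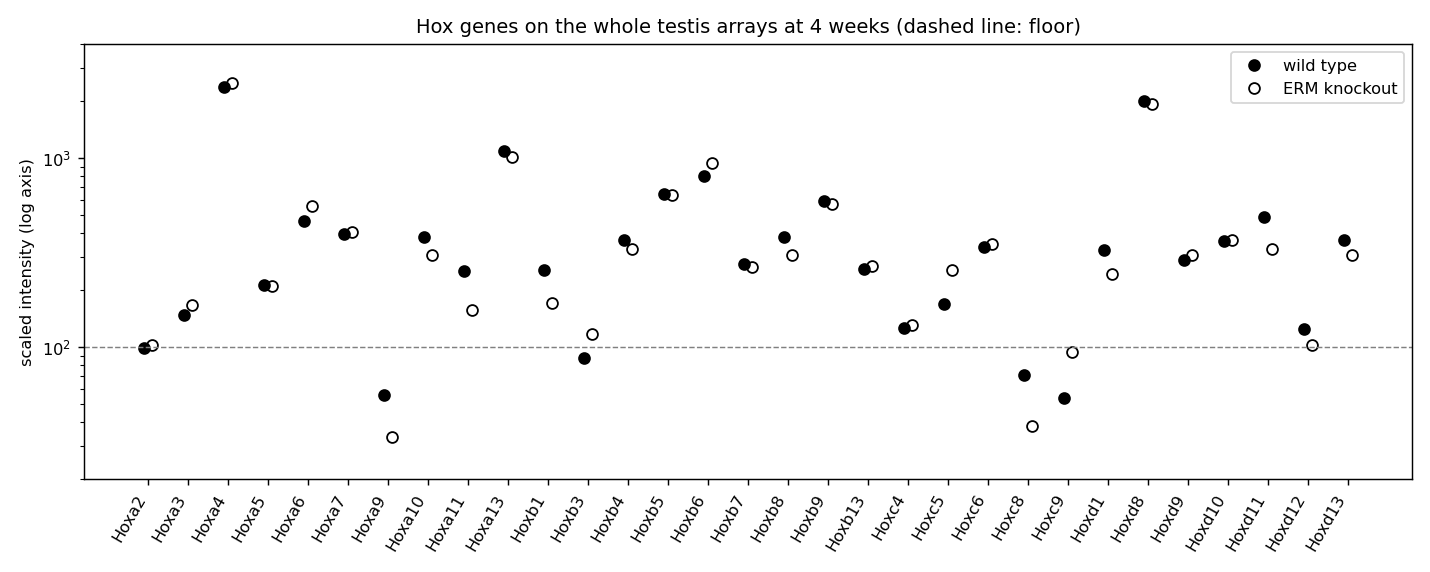
Scaled intensity on a log axis for the representative probe set of each of 31 Hox genes on the whole testis arrays, with filled circles for wild type and open circles for ERM knockout. The circles of each gene at or above the floor lie within 2-fold of each other.

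Testis was measured with other probe sets than Sertoli cells and TM4, so levels could not be set against each other, and only whether a gene reached the floor and its percentile among the probe sets of its own array were placed side by side. Of the 29 Hox genes on both designs, 17 reached the floor in wild-type testis and in wild-type Sertoli cells, 7 in testis only and 5 in Sertoli cells only. The 7 were Hoxa4, Hoxa13, Hoxb1, Hoxb7, Hoxc4, Hoxd1 and Hoxd12, and the 5 were Hoxa2, Hoxa9, Hoxb3, Hoxc8 and Hoxc9. Hoxd1 was counted by its brighter testis probe set, 98819_at (326 in wild type and 244 in knockout). Its other, 98820_g_at, was below the floor at 41.9 and 32.8. TM4 without ERM had 23 of the 29 at the floor, of which 18 also reached it in testis. Over all genes of each design, 89.2% reached the floor in wild-type testis, 85.1% in wild-type Sertoli cells and 86.3% in TM4 without ERM. The overlap between designs was not counted over all genes, so these counts are no result about the Hox genes in particular. Hoxb5 stood at percentile 73.3 in testis, 73.5 in Sertoli cells and 5.9 in TM4. Hoxb4 stood at 54.7, 66.5 and 19.9. Posterior genes of the Hoxa cluster varied, with Hoxa9 at 8.9, 39.6 and 84.8 in the same order, Hoxa10 at 56.0, 29.8 and 87.1, Hoxa11 at 41.5, 38.6 and 91.5, and Hoxa13 at 86.8, 9.6 and 23.8. Hoxb6 stood at 79.5, 31.3 and 82.9. The testis percentile of a gene comes from another probe set, so it does not place testis nearer to either cell source. Whole testis also holds germ, Leydig, peritubular and blood vessel cells, and a percentile depends on which probe sets a design carries.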

How the data were processed

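The authors deposited one intensity per probe set and array, on a linear scale. Its software and scaling are not given in the sources consulted. Trimmed means on the deposited scale were 183 and 186 in TM4, 288 to 299 in Sertoli cells, and 468 and 477 in testis. Every array was brought to a trimmed mean of 500 (non-control probe sets, percentiles 2 to 98), and a floor of 100 (0.2 of it) was set before log2 ratios were taken. A ratio was given where at least 1 array reached the floor. Probe sets annotated to 1 gene were kept (34945 and 10833), and a gene was represented by the one with the highest mean over its table. RefSeq gene order was used for names and neighbours only. Groups came from the sample labels. The 5 array pairs and the 2 TM4 against the 3 Sertoli arrays were compared by counts past 2-fold, beside the same over all genes. With 1 array per group, no p-value was computed.

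The members and gene lists were chosen with earlier results of these data known. All members could be named, with per-array values for those at 500 or more, past 2-fold, or with disagreeing probe sets, and of each other list up to 4 genes with the largest ratio. Further genes are named where they complete a count, chosen after their values were seen. Alternatives were the deposited values, centred ratios, quantile normalization, floors at 0.1 and 0.4, a gene's mean over its probe sets, and dropping probe sets that may cross-hybridise. Leaving out each array in turn was chosen after seeing the data. All steps were first tested on simulated data. Python 3.11.15, numpy 2.4.6, pandas 2.3.3 and matplotlib 3.10.9 were used.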

Additional observations from a re-analysis of the deposited data

How the results depend on the processing

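No paired analysis was possible because each group had 1 array. Of 20 Hox ratios past 2-fold over the 5 array pairs, 20 stayed past it with quantile normalization. With the deposited values 16 did, with the floor at 0.4 14 and with the mean over probe sets 17. All 20 also stayed with centred ratios, but centring moved log2 ratios by at most 0.08. The floor at 0.1 and dropping probe sets prone to cross-hybridisation could not change the count. A lower floor can only enlarge a ratio, and none of the dropped probe sets stood for these genes. None changed sign with the deposited values, quantile normalization or the mean over probe sets, and the other settings could not reverse a ratio of this size. With deposited values, 6 Hox genes were higher in TM4 than in wild-type Sertoli cells, against 7.24% of all genes. In knockout Sertoli cells at 4 weeks, 4 were lower than in wild type, against 3.81% of all genes. With the floor at 0.1, 4 were lower in knockout Sertoli cells (3.76% of all genes). On the 4-week knockout array 29 of 33 then reached the floor (93.6% of all genes). With the floor at 0.4, 1 was higher at 10 than at 4 weeks (3.81% of all genes). At that floor 18 of 33 reached it in TM4 with ERM, 12 in wild-type Sertoli cells and 10 in knockout Sertoli cells at 4 weeks. The shares of all genes were 69.8%, 69.2% and 66.9% in the same order. At the main floor the Hox counts were 28, 23 and 19, beside 85.9%, 85.1% and 83.4% of all genes. With the mean over probe sets, 1 was lower in knockout Sertoli cells (2.4% of all genes). The cause was not tested. Signals near the floor limit Hoxa4, Hoxa13, Hoxc4, Hoxc8 and Hoxc13.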

Other observations

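Transcripts from the opposite strand of the Hox clusters had a different profile from their partners. Hoxa11os, transcribed opposite Hoxa11, read 326 and 327 in TM4 without and with ERM and 713, 1177 and 836 in Sertoli cells (wild type and knockout at 4 weeks, knockout at 10 weeks) on 1452400_a_at, so that the cell sources did not overlap and stood in the reverse order of Hoxa11. Its other probe set, 1457646_at, was below the floor on the 5 arrays. In testis Hoxa11os read 226 in wild type and 222 in knockout on 93873_s_at. Hoxb5os read 309 and 265 in TM4 and 278, 193 and 163 in Sertoli cells, without the separation seen for Hoxb5. Hoxd3os1 read 186 and 208 against 258, 247 and 252 on 1430263_at. These probe sets were named after their values were seen, and how far a probe set tells the strands apart was not tested.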
